A study of Danio rerio with 6 samples.

Results

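Wild-type sibling zebrafish embryos at 19 hours post fertilization (hpf) were described from 3 arrays, which are the arrays titled as wild type among the 6 of the study. Each array measured RNA of whole, dechorionated embryos pooled 10 to 25 at a time and grown at 28.5 degrees Celsius, and the pools are called pool 1, 2 and 3 here by the number in their titles. The embryos came from crosses of heterozygous carriers of the hanS6 allele of hand2, and the wild-type siblings were picked out by eye from the pattern of a Tg(myl7:egfp) reporter, which drives a green fluorescent protein from the promoter of the heart myosin light chain gene myl7. Heterozygous carriers look like homozygous wild-type embryos, so the group can hold both genotypes, and its members share the reporter line. The other 3 arrays, of hand2 mutant embryos, enter only where the numbers of the pools are compared. The values are deposited MAS5 signals, a linear hybridisation intensity per probe set, and 15502 probe sets remained after 115 control probe sets were left out.

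At this age the zebrafish embryo is near the end of segmentation. Somites already make contractile muscle while the tailbud still adds new ones, the neural tube holds dividing progenitors beside early neurons, a keratin-rich skin covers the body, and the yolk syncytial layer, a layer of nuclei at the yolk surface, passes yolk lipid to the embryo as lipoprotein. The heart precursors are still gathering into a tube, embryonic globin genes are switched on before circulation is under way, and the liver, exocrine pancreas, photoreceptors and pituitary are not yet mature.

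A signal was read against the 17 Tag controls of each array, probe sets that match no zebrafish transcript. The brightest Tag control had a signal of 64.1, 122.3 and 63.7 in pools 1, 2 and 3. The 2nd brightest had 60.6, 63.3 and 49.2, so the higher limit in pool 2 rests on 1 Tag control. A probe set above it on all 3 arrays is called detected, one at or below it on all 3 is called background, and one above it on 1 or 2 arrays is called mixed. A probe set with an even signal between 64.1 and 122.3 is thus mixed through the pool 2 limit alone, also in the list counts below. By this rule 8663 of the 15502 probe sets (55.9%) were detected, 4457 (28.8%) were background and 2382 (15.4%) were mixed. With the 2nd brightest Tag control as the limit, 10298 were detected and 3776 were background. With the median Tag control as the limit, 13162 were detected and 840 were background, so the limit decides the size of both classes. The brightest probe set of a gene stood for it, which gave 8793 named genes: 5908 (67.2%) were detected, 1176 (13.4%) mixed and 1709 (19.4%) background. A probe set's signal depends on how well its probes bind as well as on the amount of transcript, so the order of genes below is an order of probe-set signal. In a whole embryo, fewer cells of a type and less RNA per cell cannot be told apart.

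The median signal of all probe sets was 162.2, and the brightest 5% and 1% began at 2936 and 11385. Of the named genes, 659 (7.49%) lay in the brightest 5% and 128 (1.46%) in the brightest 1%. The counts of each list below stand beside 67.2% detected and a median signal of 278.2 over all named genes. Protein synthesis filled the top of the range: of the 73 measured genes with a ribosomal protein symbol, all 73 were detected and 68 lay in the brightest 1%, and their median signal was 21759, beside 278.2 over all named genes. The 5 outside the brightest 1% were rpl22l1, rps27.2, rpl7l1, rps27l and rps19bp1, of which rps19bp1 is a binding partner of a ribosomal protein. The brightest gene was rpsa, a component of the small ribosomal subunit, with signals of 24264, 37762 and 36795 in pools 1, 2 and 3 and a mean of 32940.3 ± 7530 (SD, n = 3). Next came rps2 of the small subunit, with 22910, 34299 and 33487. In both, pool 1 was lowest and pools 2 and 3 lay close to each other in the signals as deposited.

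Of the 40 brightest named genes, 31 had such a symbol, and rplp2b is another ribosomal protein. The ribosomal scaffold protein gene rack1 and the elongation factor genes eef2b and eef1a1l1 stood among them, with eef2b at 21196, 30957 and 29430. The 12 detected of the 13 measured translation elongation and nascent chain genes included tpt1 and the poly(A)-binding protein gene pabpc1a, and the list's median was 17594. The exception was eef1a1a, which was background with a mean of 36.2. Other genes of the top 40 came from metabolism and the body surface. The gene of betaine-homocysteine methyltransferase, bhmt, had 21204, 32216 and 27394, and the mitochondrially encoded cytochrome oxidase subunit COX1 averaged 23613 ± 4182 (SD, n = 3). As deposited, all 40 were lowest in pool 1, as were 33.6% of all detected probe sets, but after quantile normalization, which gives each array the same distribution of signals, 15 were lowest in pool 1, 9 in pool 2 and 16 in pool 3.

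**Figure D1:**
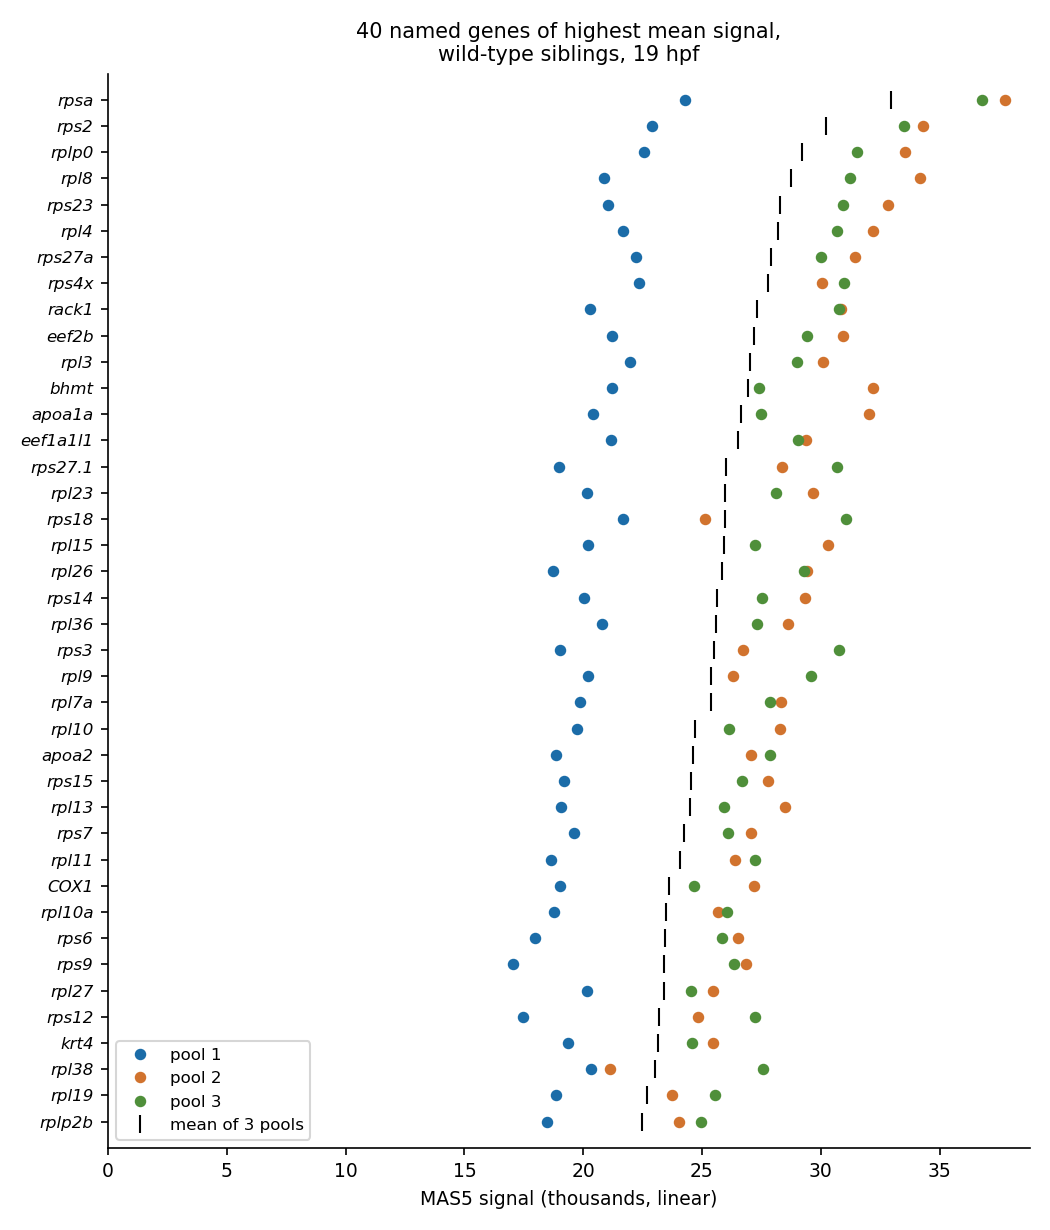
MAS5 signal (linear axis) of the 40 named genes of highest mean signal, 1 row per gene, with a point for each of the 3 wild-type pools. In the deposited signals the pool 1 point is the lowest in all 40 rows, which held for 15 after quantile normalization, and 31 of the 40 genes carry a ribosomal protein symbol. Bars mark the mean of the 3 pools.

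Lipid transport genes of the yolk syncytial layer were next in brightness among the tissue lists. Of 16 measured genes of the layer and of lipoproteins, 14 were detected and the median signal was 6140. The apolipoprotein gene apoa1a had 20403, 32025 and 27502, and apoa2 had 18872, 27075 and 27865. Both were in the brightest 40. The list also held apoc1, with a mean of 13444, apoeb, with 13151, and tfa, the iron carrier transferrin, with 11317 ± 1586 (SD, n = 3). Its dim end was formed by the regulators hnf4a, which was mixed with a mean of 91.4, and mxtx2, an early regulator of the layer, which was background with a mean of 43.8.

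All 22 measured genes of epidermis and periderm were detected and 14 of them lay in the brightest 5%, with a median of 4779. The keratin gene krt4 had 19373, 25480.5 and 24567, and krt8 had 16518, 21075 and 21640. The annexin gene anxa1c had 10114, 12956 and 18637 and was thus the least even of the 4 brightest. The dimmest was cldne, a claudin of tight junctions, which still averaged 177.6. Of the hatching gland, which makes the enzymes that free the embryo from its chorion, all 4 measured genes were detected: the tetraspanin gene cd63 with a mean of 6108 ± 146 (SD, n = 3), the secretory pathway regulator xbp1 with 5576, agr2 with 653.7 and the gland's transcription factor klf17 with 243.1. The genes cd63 and xbp1 are also used in other secretory cells. Both measured genes of ionocytes, the skin cells that move salts and acid, were detected, with 708.1, 753.1 and 951.6 for the carbonic anhydrase gene ca2 and a mean of 532.3 for the pump subunit gene atp1b1b.

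Genes of dividing cells were all detected, 18 of 18, with a median of 3067. The clamp of the replication fork, pcna, had 15128, 19513 and 17884, and the cyclin gene ccnd1 had 7741, 7523 and 8235. The replication helicase genes mcm7 and mcm2 averaged 6977 and 6239.6, while mcm6, of the same complex, averaged 131.0.

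The nervous system list with the highest signals was that of progenitors, in which 18 of 18 genes were detected and the median was 1307. The progenitor transcription factor gene sox3 had 6194, 5759 and 4734, and the neural cadherin gene cdh2 had 3507, 3503 and 4172. Of 21 measured genes of brain regions, 20 were detected and 1 was mixed, with a median of 298. The eye and forebrain regulator pax6a averaged 1005 ± 137, gbx2, which marks the anterior hindbrain, averaged 692.1 ± 178, and egr2b, which marks hindbrain segments, had 531.3, 419.0 and 977.9, with pool 3 well above the others. Of the neuronal genes, 19 of 25 (76%) were detected, 3 were mixed and 3 background. Their median of 260 was near the 278.2 of all named genes, of which 67.2% were detected. The tubulin gene tubb5 led with 3337, 3349 and 2882, and elavl3, an RNA-binding protein of new neurons, had 1264, 1285 and 967.7. The Notch ligand gene dla averaged 1332. At the other end, th, the enzyme that begins catecholamine synthesis, averaged 16.1 and the motor neuron regulator lhx3 averaged 6.15, both background.

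Neural crest and pigment genes had a median of 472, with 9 of 14 detected and 4 background. The detected share of 64.3% was near the 67.2% of all named genes. The crest regulator tfap2a had 2574, 2743 and 3158, sox9b averaged 982.2 and the early crest factor foxd3 averaged 862.6. The receptor gene kita, used by pigment cells, averaged 21.9 and was background, as was sox9a with 19.1. In the ear and placode list 7 of 8 genes were detected, led by the otoconial gene oc90 with 1145, 1260 and 594.9 and the placode regulator dlx4b with a mean of 658.6. Of 3 measured lens genes, 2 were mixed and cryaa, an alpha crystallin, was background with a mean of 17.5.

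Skeletal muscle genes ranged from the brightest 1% to background. Of 25 measured, 21 were detected, 2 were mixed and 2 were background, with a median of 691. The alpha-actin gene actc1b had 10375, 14801 and 11103, with pool 2 highest. The calcium pump gene atp2a1 had 5424, 6527 and 4877, and acta1a, another muscle actin, had 4161, 6327 and 4928, again with pool 2 highest. The actin probe sets can bind transcripts of near-identical paralogs, so each is uncertain. The giant filament protein gene neb averaged 56.9 and tnnt3b averaged 45.7, both background.

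Of 18 genes of the tailbud, the presomitic mesoderm and the somite clock, 10 were detected, 6 were mixed and 2 background, with a median of 231. The Notch ligand gene dld had 2975, 3502 and 2977, and msgn1, a regulator of presomitic mesoderm, had 2250, 2785 and 2900. The clock partner hes6 was even, with 1650, 1710 and 1714. In the notochord and floor plate list 7 of 12 genes were detected and the median was 153. The collagen gene col2a1a had 1938, 2135 and 1637, the signalling gene shha averaged 425.0 ± 114 (SD, n = 3), and its paralog shhb was background with a mean of 37.3.

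Several genes known to act in heart precursors were background in the whole embryo. Of 15 measured genes of cardiac muscle and the heart field, 8 (53.3%) were detected, 3 were mixed and 4 were background. Of all named genes 67.2% were detected. The list's median was 170, beside 278.2 over all named genes and 162.2 over all probe sets. The gene mutated in the line, hand2, had 348.9, 447.7 and 292.2, and myl7, whose promoter drives the reporter, had 348.5, 412.9 and 169.9. Pool 3 was lowest in both. The alpha-actin gene actc1a was the brightest of the list with 9591, 12264 and 10551, but its transcript is close to that of actc1b. The heart regulators nkx2.5 and tbx20 averaged 10.1 and 2.66. A background signal on this array does not show that a transcript was absent. The array's control probe set for a form of EGFP lay at background, with 14.0, 20.1 and 9.15. Whether its probes match the transcript of this reporter was not tested. In the lateral plate and fin bud list 5 of 8 genes (62.5%) were detected, led by the homeobox gene meis1b with a mean of 1901.

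**Figure D2:**
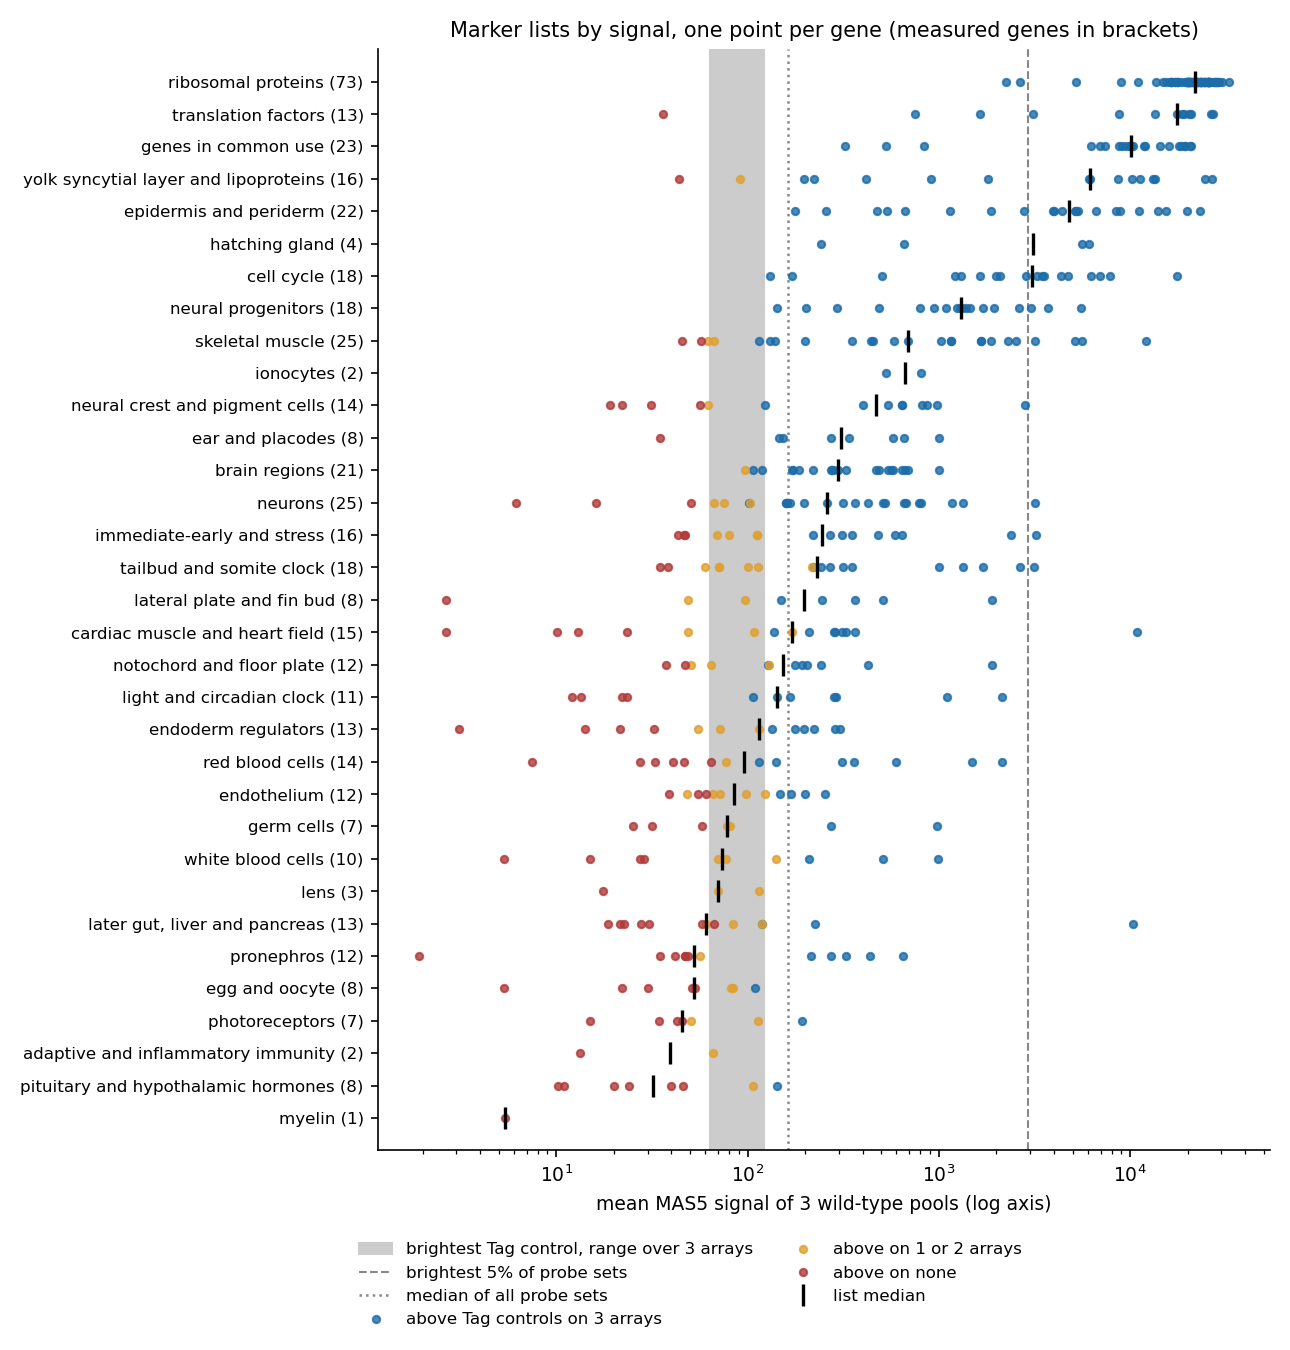
MAS5 signal (log axis) of each measured member of the marker lists, 1 row per list in order of the list's median, with each point the mean of the 3 wild-type pools, coloured by whether it was detected, mixed or background, and a bar at the list's median. The band spans the brightest Tag control of the 3 arrays and the lines mark the median and the brightest 5% of probe sets. Ribosomal proteins lie highest with a median of 21759, skeletal muscle genes stretch from actc1b at 12093 down to 45.7, and lists of later tissues lie mostly near the Tag controls.

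In the red blood cell list 7 of 14 genes were detected, 1 was mixed and 6 were background, with a median of 96.0. The embryonic globin gene hbae3 had 1644, 2523 and 2249, and hbbe3 had 1303, 1503 and 1639. Both were lowest in pool 1. The heme synthesis gene urod averaged 597.0 ± 51.1, whereas the membrane anion exchanger slc4a1a averaged 27.3 and the erythroid regulator klf1 averaged 7.51. White blood cell genes had a median of 73.7, with 3 of 10 detected. The myeloid regulator cebpa led with 974.7, 1346 and 642.9, but it is used in other tissues too, and mpx, the peroxidase that defines neutrophils, was background with 14.9, 22.4 and 7.68. Of 12 endothelial genes 4 were detected and 5 were mixed, with a median of 84.9, and gata2a was highest with a mean of 255.0. Of 12 genes of the pronephros, the embryonic kidney, 5 were detected and 6 were background. The kidney cadherin gene cdh17 had 337.3, 469.8 and 174.1, and the phosphate transporter gene slc20a1a averaged 1.91.

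Endoderm regulators were dim, with 6 of 13 detected, 4 background and a median of 114. The forkhead gene foxa1 was highest, with 345.9, 403.8 and 163.9, while the early endoderm regulators sox32 and sox17 averaged 14.2 and 3.11. Of 7 measured germ cell genes 2 (28.6%) were detected, 2 were mixed and 3 were background, with a median of 78.0. The 2 detected were dnd1, which protects germ cell transcripts, with 963.1, 766.2 and 1193, and nanos3, with 287.0, 356.1 and 173.9. The helicase gene ddx4 was background with a mean of 57.6. Only pou5f3 of 8 measured egg and oocyte genes was detected, with a mean of 109.7, and it is also used by the embryo itself.

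The 5 lists of later tissues, namely gut, liver and pancreas, photoreceptors, hormones, myelin and immunity, held 31 measured genes. Of these 5 were detected, 7 were mixed and 19 were background. The brightest was fabp2, an intestinal fatty acid-binding protein that zebrafish embryos also make in the yolk syncytial layer, with 9422, 12679 and 9109. The plasma copper carrier gene cp, made by the liver, had 227.4, 257.6 and 190.5, and the trypsin gene prss1 had 116.1, 134.6 and 107.9. Both were detected, and 3 more of that list's 13 genes, among them the somatostatin gene sst2 with a mean of 118.8, were mixed. The blue opsin gene opn1sw2 had 177.1, 187.3 and 216.2, and the reproductive hormone gene gnrh3 had 140.6, 141.9 and 142.6. Another liver gene, fabp10a, had 6.47, 36.3 and 25.0, the myelin gene mbpa had 7.06, 5.82 and 3.33, and the antigen receptor recombinase gene rag2 had 10.65, 17.04 and 12.04. The genes fabp10a, mbpa and rag2 were all background.

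Groups of genes that every cell can use ranged widely in signal. All 23 measured cytoskeletal, chaperone, histone and metabolic genes were detected, with a median of 10146, led by the chaperone gene hspa8 with 14861, 25382 and 21809. Immediate-early and stress genes had 9 of 16 detected and a median of 244. The small heat shock gene hspb1 averaged 3214 ± 105 and btg2, which restrains division, averaged 2383. Of 11 measured light and circadian clock genes 7 (63.6%) were detected and 4 were background, with a median of 141.7. The clock output gene tefa averaged 2139 and the light-responsive gene per2 had 1317, 790.9 and 1201, while clocka and per3 were background. Ordinary signals near the median of all probe sets are represented by haus5, of the mitotic spindle, with 162.9, 158.5 and 164.9, by the aquaporin gene aqp8a.1 with 142.5, 163.2 and 180.9, and by jkamp, with 234.1, 132.8 and 119.6.

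Spread between the 3 pools was small for most genes. Over the 8663 detected probe sets the SD of log2(signal + 16) had a median of 0.20, and its 5th and 95th percentiles were 0.05 and 0.48. The median coefficient of variation of the linear signal was 14.1%. Among the steadiest named genes were pex19, of peroxisome assembly, with 1312, 1310.4 and 1312, the reticulon gene rtn4a with 7163, 7160.1 and 7173, and the RNA helicase gene ddx3xa with 1678, 1689 and 1683. A pool is a number in a title and has no repeat of its own, and no test was possible within 1 group. The spread thus joins differences between embryos, RNA preparations and hybridisations, which cannot be told apart. Control probe sets at the 3' and 5' ends of an actin transcript had 3'/5' signal ratios of 9.91, 13.7 and 12.9 in pools 1, 2 and 3. For gapdh the ratios were 3.42, 4.06 and 3.87. Both ratios were lowest in pool 1, and whether they bear on the signals was not tested.

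A probe set was called variable where its highest and lowest pools differed by at least 1 in log2(signal + 16), a fixed size and not a test. This held for 307 of 8663 detected probe sets (3.54%) and for 169 of 5908 detected genes (2.86%). With only the other pools to compare, the count was 141 without pool 1, 180 without pool 2 and 96 without pool 3. The Tag limit of the pool was left out with it, and 154 of the 180 were among the 307. Pool 3 was the lowest in 183 of the 307 (59.6%), against 3295 of all detected probe sets (38%). Pool 1 was the highest in 148 of them (48.2%), against 2957 of all detected (34.1%). Pool 2 was the highest in 32.6% of them and the lowest in 24.1%, against 35.1% and 28.4% of all detected. Pool 3 was the highest in 19.2%, against 30.7%, and pool 1 the lowest in 16.3%. Of the 307, 93 (30.3%) had no single gene name, against 20.9% of all detected probe sets, and 17 of the 30 most variable probe sets were of that kind.

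**Figure D3:**
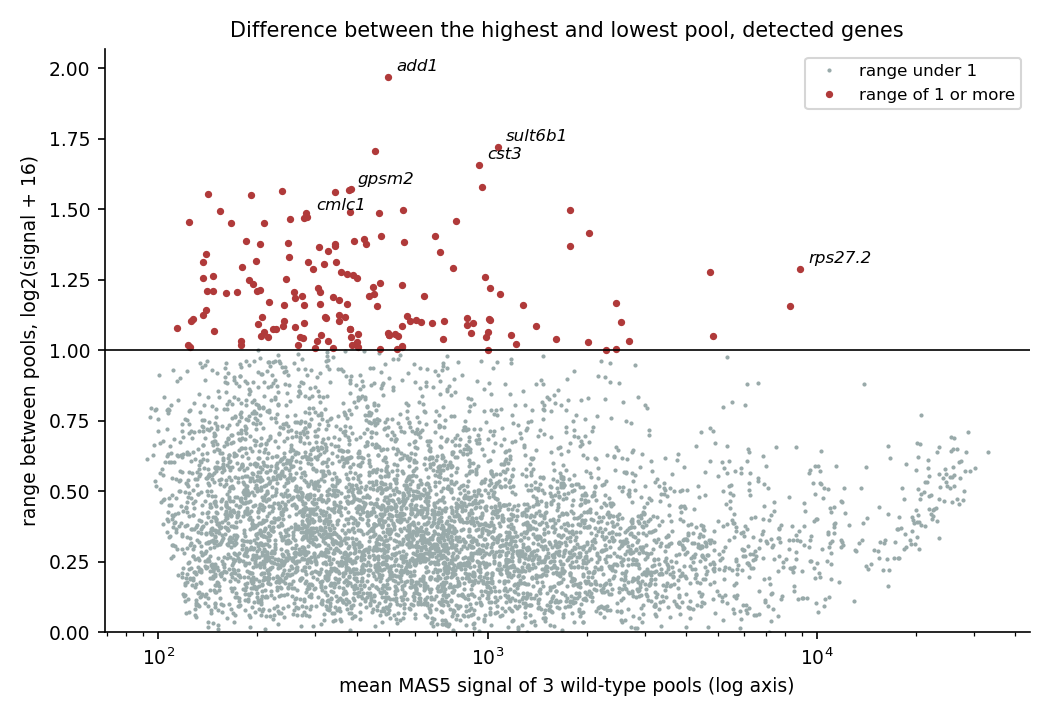
Difference between the highest and the lowest wild-type pool in log2(signal + 16) (y axis) against the mean MAS5 signal (x axis, log scale), 1 point per detected gene, with a line at 1 and some genes above it labelled after their values were seen. The 169 genes on or above the line are drawn in red, and add1 stands highest at 1.97.

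The most variable named gene was add1, an adducin of the membrane skeleton, with 680.2, 654.7 and 161.9 in pools 1, 2 and 3. Pool 3 stood apart from the other pools, which were alike. The spindle orientation gene gpsm2 had 685.5, 229.7 and 220.7, with pool 1 apart. The sulfotransferase gene sult6b1 had 878.3, 536.4 and 1805, with pool 3 highest. The protease inhibitor gene cst3 (cystatin C) had 1580.1, 746.6 and 490.2, and the carboxylesterase gene ces2b had 425.3, 1302 and 1155, with pool 1 lowest. The vitamin B12 carrier gene tcn2 was high in pool 2 alone, with 313.0, 811.1 and 296.5. The brightest of the 30 was crabp2a, a carrier of retinoic acid, with 2957, 1099.7 and 2034.

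Across the 30 most variable named genes the SD of log2(signal + 16) ran from 0.71 to 1.12. Pool 1 was highest in 18, pool 2 in 9 and pool 3 in 3, and pool 3 was lowest in 21, or in 17 after quantile normalization. The 30 held few markers of a tissue: the heart myosin light chain gene cmlc1 with 406.4, 308.7 and 136.2, the neural repressor gene her3 with 113.9, 240.2 and 71.3, and olig2, of motor neuron and oligodendrocyte precursors, with 160.9, 255.1 and 83.2. In all 3 pool 3 was lowest. A second detected probe set of her3 was more even, with 118.7, 145.2 and 118.3. Enzyme genes among the 30 included the pyruvate carboxylase gene pcxb, the methyltransferase gene gnmt, the thiolase gene acat1 and galm, which acts on galactose. Of these, galm had 109.0, 315.0 and 329.0 and acat1 had 750.8, 278.1 and 642.6, so they did not share an order of pools.

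**Figure D4:**
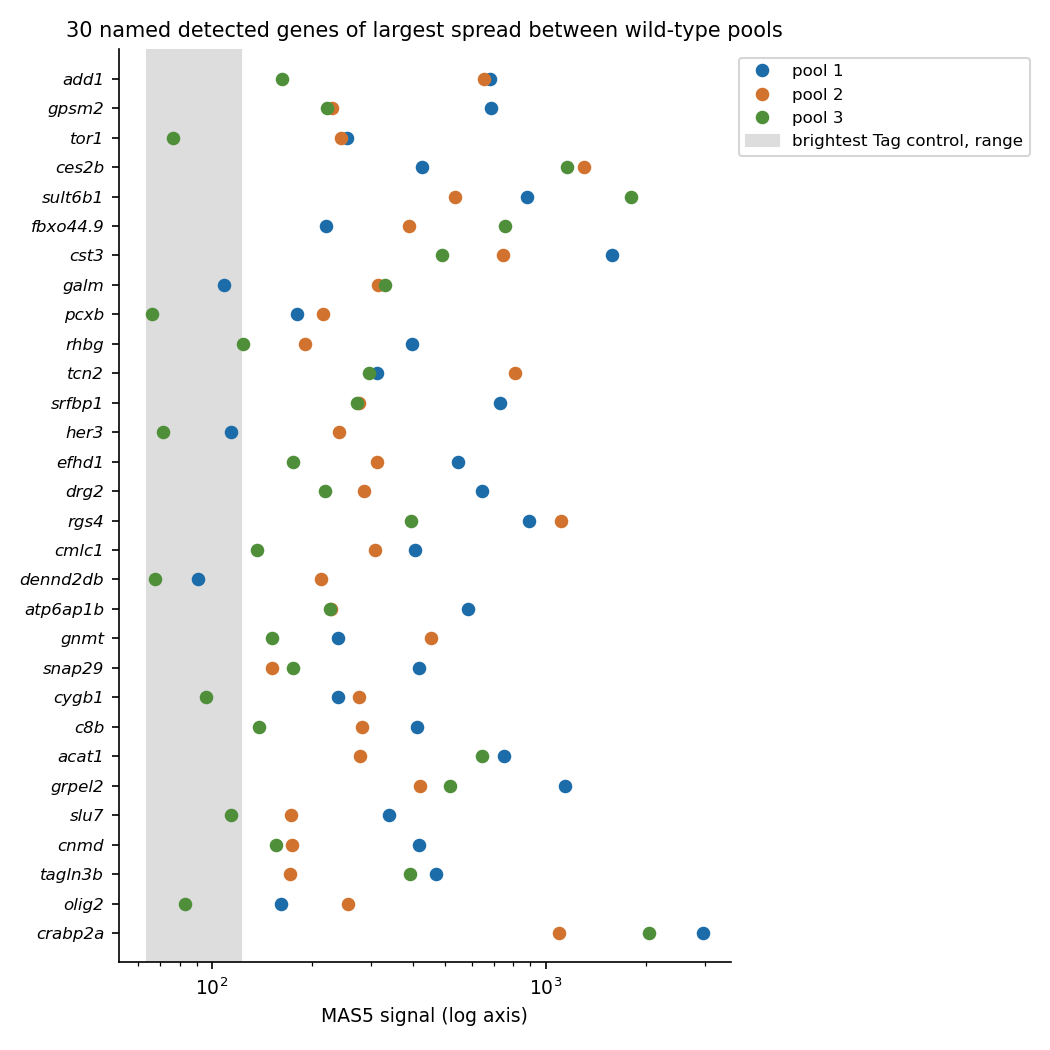
MAS5 signal (log axis) of the 30 most variable named genes, 1 row per gene in order of spread and a point for each of the 3 wild-type pools, with a band over the range of the brightest Tag control. Pool 3 is the lowest point in 21 rows, or in 17 after quantile normalization, and pool 1 is the highest in 18.

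Of 777 genes with at least 2 detected probe sets, 24 had a variable brightest one. The second was also variable in 1 of these 24, a share like that of all genes, 36 of 777. That gene was the globin relative cygb1, with 200.8, 207.5 and 75.9 in the second and 239.0, 275.3 and 96.2 in the first. The median range of the second probe set in these 24 was 0.40, beside 0.39 over all 777. It was 1.16 in the first, which had been chosen for its range. The lowest pool was the same in 19 of 24 (79.2%), against 46.6% of all 777, and the highest in 17 (70.8%), against 41.3%. In some pairs, among them that of cygb1, the probe set names differ only in their ending, so the pair may not be 2 separate readings. The second probe set of drg2, a GTP-binding protein gene, had 322.2, 308.1 and 297.3, where the first had 643.0, 286.0 and 218.4. That of rgs4, a regulator of G protein signalling, had 156.6, 168.2 and 85.5, where the first had 889.7, 1112 and 394.7. For slu7, a splicing factor, the orders differed, with 180.7, 172.9 and 234.3 in the second and 339.9, 172.3 and 114.1 in the first.

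The order of pools was also set beside that of the mutant arrays of the same number. The same number was lowest in both groups for 216 of the 307 variable probe sets (70.4%), against 43.6% of all detected probe sets, and highest for 164 (53.4%), against 43.3%. The study used 3 crosses, but the labels do not tie a number to a cross, a day or a hybridisation, and what the numbers share was not tested.

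For each of the 21 lists with at least 5 detected members, the median deviation of a pool from the gene's 3-pool mean was taken relative to that of all detected probe sets, and 7 lists reached 0.2 in some pool. Endoderm regulators had 0.24, 0.29 and -0.47 in pools 1, 2 and 3. All 6 detected members were lowest in pool 3, as were 38% of all detected probe sets. Among the 6, gata6 had 250.6, 277.0 and 142.8, and foxa2 had 209.6, 210.9 and 107.8. The mixed and background members of the list went both ways, some lowest and some highest in pool 3. Over all measured members the values in pools 2 and 3 were 0.034 and -0.20. Some lists share members, so their values are not separate results. Of the endoderm regulators, gata5 is also in the cardiac list, foxa2 in the notochord list and gata6 in the yolk syncytial layer list. Cardiac genes stood at -0.33 in pool 3, but at 0.0074 when every measured member was counted. Notochord and floor plate genes stood at 0.25 in pool 1 and -0.19 in pool 3, skeletal muscle genes at 0.20 in pool 2, and red blood cell genes at 0.21 in pool 2. Over all measured members the notochord values were 0.096 in pool 1 and -0.079 in pool 3, while skeletal muscle genes had 0.195 and red blood cell genes 0.145 in pool 2, so none of these 3 lists reached 0.2. After quantile normalization skeletal muscle genes also fell short, narrowly, with 0.169 in pool 2 and -0.197 in pool 3.

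Ribosomal protein genes stood at -0.29 in pool 1, where 70 of 73 were lowest, and translation factor genes at -0.22, but after quantile normalization these values were 0.023 and -0.01, and 27 of the 73 were lowest in pool 1. Since 68 of the 73 lie in the brightest 1%, making the arrays' distributions equal takes up such a shift by construction. With 1 common Tag limit for the 3 arrays the pool 1 values were -0.29 and -0.23. Against detected probe sets of like mean signal, in 10 groups, they were -0.23 and -0.16. The brightest group ran from 1572 to 32940, so it was mostly dimmer than ribosomal protein genes, whose median was 21759. In pool 1, bhmt, apoa1a, apoa2, COX1 and krt4, also among the 40 brightest, deviated by -0.32, -0.36, -0.36, -0.30 and -0.25. All of those 40 were lowest in pool 1. Below the 40, pool 1 deviations were less alike, with -0.44 for hspa8, -0.14 for apoc1, -0.05 for apoeb and 0.22 for tfa. Whether ribosomal protein genes differ from other genes as bright was not tested. The brightest signal of an array was 24264 in pool 1, 37762 in pool 2 and 36795 in pool 3, and the 99th percentile was 10466, 12771 and 11814. The filter on low values bears on the dim lists. The higher Tag limit in pool 2 means that a dim probe set had to be high there to be detected, and the 917 detected probe sets with a mean signal between 100.1 and 162.2 had median deviations of -0.02, 0.14 and -0.12 in pools 1, 2 and 3. With that common limit, an alternative added after the data were seen, endoderm regulators had 0.21, 0.28 and -0.40, cardiac genes -0.32 in pool 3, red blood cell genes 0.22 in pool 2 and notochord genes 0.18 in pool 1 and -0.19 in pool 3. Set against detected probe sets of like mean signal, also added then, endoderm regulators had -0.43 and cardiac genes -0.26 in pool 3. Red blood cell genes then had -0.18 in pool 1 and 0.14 in pool 2, and did not reach 0.2 in any pool.

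**Figure D5:**
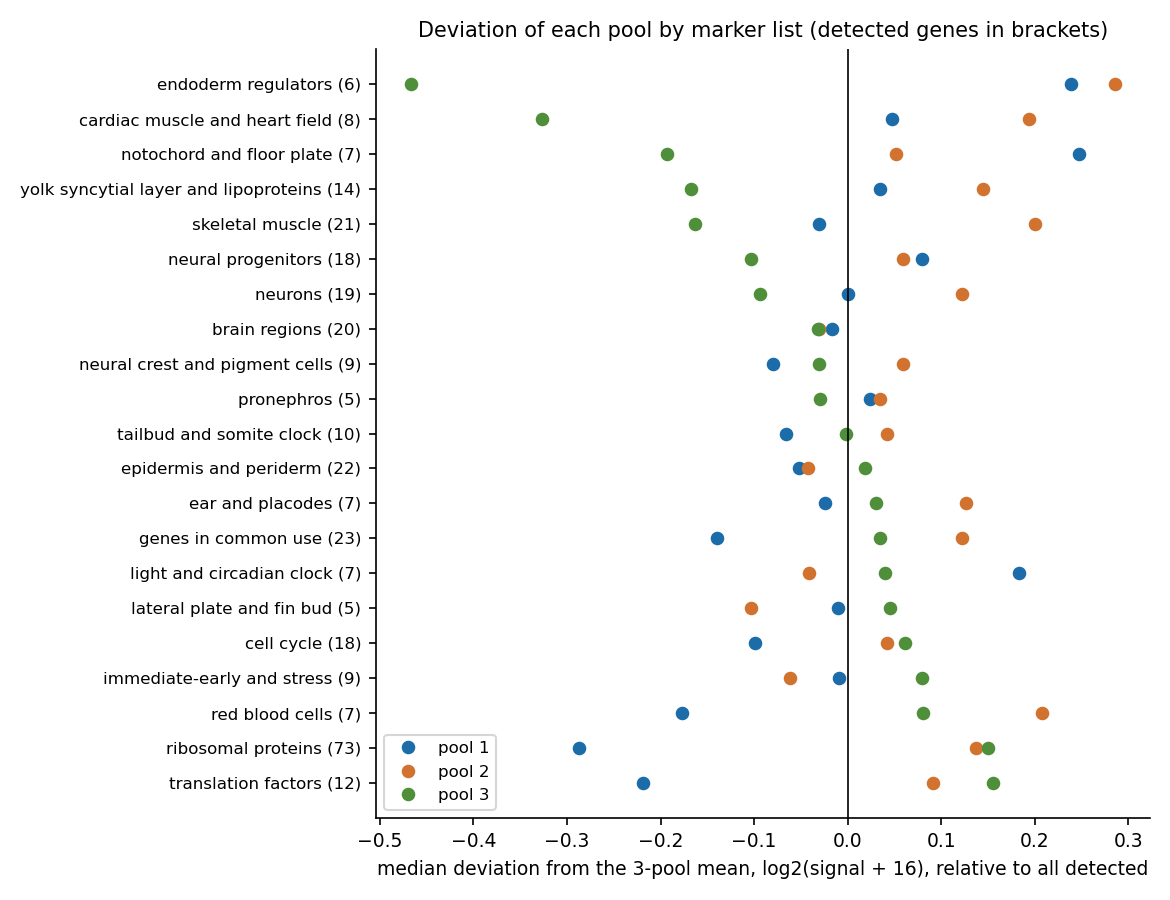
Median deviation of each pool from the 3-pool mean of log2(signal + 16), relative to all detected probe sets, for the 21 marker lists with at least 5 detected members. Endoderm regulators reach -0.47 in pool 3, and ribosomal protein genes -0.29 in pool 1, a value that is 0.023 after quantile normalization.

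Among the 332 detected genes of the lists, 18 were variable, beside 2.86% of all detected genes. They were named after their values were seen. In 15 of the 18 pool 3 was lowest, beside 183 of all 307 variable probe sets (59.6%). Examples are the muscle genes casq2 and tnnt3a, with 437.0, 425.7 and 194.9 and with 252.8, 246.7 and 100.3. Another was the neuronal regulator neurod1, with 162.8, 229.6 and 90.6. Against that, egr2b and the ribosomal gene rps27.2 were highest in pool 3. The signals of rps27.2 were 5603, 7399.8 and 13699.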

How the data were processed

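Total RNA of whole embryos was hybridised to a 1-colour Affymetrix zebrafish array. Each deposited value is a MAS5 signal, that is, a linear intensity of 1 probe set on 1 array. MAS5 is named in the submitters' processing notes, with no version, and no detection calls were used. In the table, the mean after trimming 2% from each end was 500.1 on each of the 3 wild-type arrays. No other scaling was applied. Depth has no counterpart on arrays, and their number limits the precision.

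Samples were grouped by title. The platform annotation gave 1 symbol to 10795 of 15502 probe sets, several to 135 and none to 4572, and 10711 were updated through a RefSeq gene table of assembly GRCz12tu. Probe sets with several symbols or none were not named. Values were taken as log2(signal + 16) for spread. The text names the 40 brightest genes, up to 4 brightest and 2 dimmest members of each of 33 marker lists, the 30 most and 10 least variable detected genes, 10 genes at the median, hand2 and myl7. From these, examples are given. Genes with clone or locus names were passed over, and casq2, ddx4, fabp10a, foxa2, neurod1, rpl22l1, rpl7l1, rps27.2, tfa and tnnt3a, which the rule does not reach, were chosen after their values were seen.

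The group and the lists were chosen with earlier results of these data known. The size of 0.2 for a list, its minimum of 5 detected members, the comparison of pool numbers and the summary of second probe sets were chosen during the exploration of the data. No test was run, since there is 1 group and no contrast. The detection, spread and quantile normalization steps were tested on simulated data. Their noise was smaller than the median spread here, and their shifts exceeded the size called variable and lay in probe sets above the median signal. The list shifts and second probe sets were not simulated. Python 3.11.15, pandas 2.3.3, numpy 2.4.6 and matplotlib 3.10.9 were used. Alternatives covered the Tag limit, the offset, the scaling, the filter and leaving out each pool.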

Additional observations from a re-analysis of the deposited data

How the results depend on the processing

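Detected probe sets numbered 8663, 13162 with the median Tag control as the limit, and 8668 to 10131 with a pool left out; background probe sets numbered 4457, 840 with that limit, and 4462 to 5036 with a pool left out. The 307 variable probe sets became 176 with an offset of 64, 1148 with no filter on low values and 96 to 180 with a pool left out. Leaving out a pool keeps only the range of the other pools and also drops that pool's Tag limit. Between 36 and 40 of the 40 brightest genes stayed among the 40 under every alternative run. The lists that reached 0.2 in a pool numbered 7. Over all measured members they numbered 4: endoderm, ribosomal and translation factor genes of the 7, and neural crest and pigment cells, with 0.298 in pool 2 against 0.06 over detected members. With quantile normalization the yolk syncytial layer list joined, with -0.23 in pool 3. Set against probe sets of like mean signal, so did that list, with -0.22, and the light and circadian clock list, with 0.23 in pool 1. By that comparison red blood cell genes and translation factor genes fell short of 0.2, with -0.18 and -0.16 in pool 1 as their largest deviations. Its brightest group ran from 1572 to 32940, so it was no close match for the brightest genes. The shift of ribosomal proteins in pool 1 was -0.29 and became 0.023 with quantile normalization. That of cardiac genes in pool 3 was -0.33 and became 0.0074 over all measured members. The causes were not tested. A common limit for the 3 arrays gave 352 variable probe sets; it and the comparison with probe sets of like mean signal were added after the data were seen. Signals near the Tag controls are limited by background, and quantile normalization cannot change which probe sets are detected. No paired analysis was possible because the result comes from no test and there is only 1 group.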
